A study of Homo sapiens with 30 samples.

Results

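The genes described here copy DNA and supply its building blocks: 47 genes of the 60656 listed in the deposited tables. They were chosen by symbol and joined by gene ID across both tables, and cover subunits of the replication machinery, 5 enzymes of deoxynucleotide supply and 3 genes that copy chromatin. The samples are cultures of diffuse large B cell lymphoma, a cancer of mature B cells, kept as established cell lines. Messenger RNA was sequenced in 30 libraries, 3 in each of 10 groups. Of these, 24 are from OCI-LY3, HT, SUDHL5 and OCI-LY19, each labelled wild type and each sampled without drug at 0 h and after 24 h in 0.2 µM doxorubicin. Doxorubicin is an anthracycline drug that traps topoisomerase II on DNA and so causes DNA breaks. The other 6 are from a sensitive and a resistant culture of OCI-LY19: OCI-LY19S was grown drug-free, and OCI-LY19R was grown in 20 nM doxorubicin up to 1 week ahead of the experiment. OCI-LY19R is 1 derived culture, so its resistance and its culture history cannot be told apart. Because untreated cells were sampled at 0 h alone, an effect of 24 h in culture cannot be told apart from that of doxorubicin.

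DNA is copied from origins that are prepared before S phase. ORC, CDC6 and CDT1 load the ring-shaped MCM2-7 helicase onto DNA, and geminin (GMNN) blocks reloading by binding CDT1. At the start of S phase the kinase CDC7 with DBF4 helps CDC45 and GINS join the helicase, polymerases then extend new strands behind the clamp PCNA, and ribonucleotide reductase makes the deoxynucleotides. Many of these genes are classic targets of the E2F transcription factors, which the retinoblastoma family of pocket proteins restrains, and p53 acts on that family through the cell cycle inhibitor p21 (CDKN1A).

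The sequences before the start sites of 7 genes are shown because their mRNAs moved in different ways although all 7 held E2F-type letters. MCM6, UHRF1 and GINS2 had the largest falls in OCI-LY19. PCNA and TYMS were not lowered there, and MCM7 and RFC3 passed the test as lower in all 4 lines. Each line gives the 250 bases before the start that RefSeq annotates farthest upstream on GRCh38.p14, ahead of the first exon, read 5′ to 3′ on the strand of the gene. Capitals mark TTTCCCGC, TTTGGCGC, TTTCGCGC or TTTGCCGC on either strand.
MCM6: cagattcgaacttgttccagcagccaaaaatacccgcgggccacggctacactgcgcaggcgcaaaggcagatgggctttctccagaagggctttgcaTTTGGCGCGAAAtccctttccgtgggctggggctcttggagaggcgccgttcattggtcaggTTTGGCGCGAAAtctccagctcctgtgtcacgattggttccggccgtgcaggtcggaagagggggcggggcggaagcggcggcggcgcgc
UHRF1: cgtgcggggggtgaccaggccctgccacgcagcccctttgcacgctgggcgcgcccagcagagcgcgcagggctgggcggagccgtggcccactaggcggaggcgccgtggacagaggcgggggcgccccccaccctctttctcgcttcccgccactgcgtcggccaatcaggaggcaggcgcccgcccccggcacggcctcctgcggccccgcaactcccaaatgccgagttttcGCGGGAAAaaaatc
GINS2: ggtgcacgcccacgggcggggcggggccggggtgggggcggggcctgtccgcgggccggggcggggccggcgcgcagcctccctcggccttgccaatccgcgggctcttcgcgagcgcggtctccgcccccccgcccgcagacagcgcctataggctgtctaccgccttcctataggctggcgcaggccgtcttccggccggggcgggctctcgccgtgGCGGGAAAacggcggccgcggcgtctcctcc
MCM7: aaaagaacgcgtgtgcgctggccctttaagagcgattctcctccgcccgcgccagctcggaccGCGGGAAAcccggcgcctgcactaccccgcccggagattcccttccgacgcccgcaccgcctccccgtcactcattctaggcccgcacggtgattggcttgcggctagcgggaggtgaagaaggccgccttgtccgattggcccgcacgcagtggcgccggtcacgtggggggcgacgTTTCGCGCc
RFC3: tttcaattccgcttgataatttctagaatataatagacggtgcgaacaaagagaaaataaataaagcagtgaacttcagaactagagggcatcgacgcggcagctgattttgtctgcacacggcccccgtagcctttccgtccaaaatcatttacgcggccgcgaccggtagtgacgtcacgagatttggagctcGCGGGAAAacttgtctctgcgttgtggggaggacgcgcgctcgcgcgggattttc
PCNA: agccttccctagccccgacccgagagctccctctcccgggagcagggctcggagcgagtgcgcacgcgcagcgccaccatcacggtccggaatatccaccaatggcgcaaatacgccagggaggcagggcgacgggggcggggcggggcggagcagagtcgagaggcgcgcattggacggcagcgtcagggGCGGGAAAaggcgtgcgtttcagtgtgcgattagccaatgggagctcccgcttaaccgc
TYMS: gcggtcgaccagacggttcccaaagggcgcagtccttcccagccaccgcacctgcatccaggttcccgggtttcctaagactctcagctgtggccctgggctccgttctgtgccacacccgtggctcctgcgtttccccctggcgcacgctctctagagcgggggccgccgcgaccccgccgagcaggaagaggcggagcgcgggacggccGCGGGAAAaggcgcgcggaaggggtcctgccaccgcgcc
These stretches lie at chr2:135876444-135876693 on the minus strand for MCM6, at chr19:4909251-4909500 on the plus strand for UHRF1 and at chr16:85688955-85689204 on the minus strand for GINS2. Those of MCM7, RFC3, PCNA and TYMS lie at chr7:100101398-100101647 (minus), chr13:33817899-33818148 (plus), chr20:5126623-5126872 (minus) and chr18:657403-657652 (plus).

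In MCM6 the capitals form 2 copies of one stretch of 12 bases, in which TTTGGCGC overlaps the reverse complement of TTTCGCGC. Those 4 matches began at positions -152, -148, -90 and -86, counted from the start site. UHRF1, GINS2, RFC3, PCNA and TYMS each held 1 match, and all 5 were TTTCCCGC read on the other strand, beginning at -14, -31, -55, -59 and -39. MCM7 held 2, TTTCCCGC read on the other strand at -187 and TTTCGCGC at -9. Windows of 300 bases (250 before and 50 after the start) were found for 41 of the 47 genes, and 19 of them (46.3%) held an E2F-type match, beside 911 of 27305 genes with a window (3.3%). The CCAAT box was in 21 of 41 windows (51.2%) beside 35.7% of all windows. The letters of the CHR element, TTTGAA, were in 2 of 41 (4.9%) beside 15.5%. E2F-type letters were found in 16 of the 36 genes with a window that fell in OCI-LY19 and in 3 of the 5 that did not fall (LIG1, PCNA and TYMS). A match is a description of letters and not a measured binding site.

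Whole reads could be recovered from the deposited FPKM values (reads scaled to gene length and library total), and libraries held 16067405 to 121769119 reads. Each of the 47 genes had at least 154 reads in every library, and that lowest count, of POLE2, carries a counting error of 8.06%. The median coefficient of variation over the 47 genes was 2.87% in untreated SUDHL5, 4.21% in treated SUDHL5 and 22.2% in treated OCI-LY19, where the library of replicate 1 was the lowest of 3 for 45 genes. For the genes of few reads, counting error is therefore not small beside the spread in SUDHL5. The replicates are labelled as biological triplicates, but nothing shows that the closely matching SUDHL5 libraries came from separate cultures, and p-values measure only the spread between libraries, which may be technical. All 6 B cell markers examined reached 1 FPKM in every group (summed 263 to 1510 FPKM), although their sum went from 1260 to 1510 down to 680 to 852 FPKM in OCI-LY3 with treatment and MS4A1 was low in OCI-LY19S (1.48 to 2.83 FPKM). Summed FPKM of 4 myeloid markers went from 5.14 to 9.24 before doxorubicin to 19.5 to 32.9 after it in OCI-LY19, where 3 of the 4 reached 1 FPKM and CD14 read 0.189 or less, and from 0.266 to 0.455 up to 5.23 to 6.23 in SUDHL5. Summed FPKM of 4 T cell markers went from 3.19 to 3.75 up to 14.8 to 17.0 in SUDHL5, where 3 of the 4 reached 1 FPKM, and stayed at 1.2 or less elsewhere. Summed FPKM of 5 stromal, epithelial or endothelial markers went from 2.03 to 2.18 up to 4.16 to 4.94 in SUDHL5, where 1 of the 5 reached 1 FPKM. The part of these markers in the results below was not tested.

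CDKN1A, which encodes p21, marked the lines apart. It read 26.2, 24.8 and 20.5 FPKM before and 545, 490 and 536 after doxorubicin in OCI-LY19, and 13.6, 12.8 and 13.2 before and 228, 243 and 236 after in SUDHL5. In OCI-LY3 it went from 0.743 ± 0.423 to 5.62 ± 2.05 FPKM (SD, n = 3). HT stayed below 1 FPKM in all 6 libraries, at 0.123 to 0.167 before and 0.170 to 0.229 after. In log2(FPKM + 1) the changes were 4.41 ± 0.16 (SE) in OCI-LY19, 4.06 ± 0.16 in SUDHL5 and 1.91 ± 0.16 in OCI-LY3, with limma's adjusted p of 3.76e-14, 5.34e-13 and 9.33e-09. The value in HT was 0.07 ± 0.16 (adjusted p = 0.835). The added 1 FPKM shrinks the changes in OCI-LY3 and HT, where CDKN1A was low, more than those in the other lines.

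Before treatment the 47 genes were expressed in all 4 lines, with median group means of 22.5 to 26.4 FPKM. PCNA, the sliding clamp, was the most abundant per length in every group (234 to 286 FPKM untreated), and POLA2, the accessory subunit of polymerase alpha, was the least abundant in untreated cells (2.85 to 3.63 FPKM). Levels differed among the untreated lines for 43 of the 47 genes by limma's moderated F test, beside 90.5% of all genes tested. The SUDHL5 libraries carried a description suffix that no other of the 4 lines had. Its line and any batch difference therefore cannot be told apart in these levels. The 4 that did not pass were ORC1, MCM3, PRIM1 and POLD1, with adjusted p of 0.112, 0.211, 0.327 and 0.350.

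RRM2, the regulated subunit of ribonucleotide reductase, had the widest range. It read 14.0, 13.9 and 12.9 FPKM in HT and 53.8, 43.8 and 55.1 FPKM in OCI-LY3, a 3.75-fold ratio of means, with 37.7 ± 2.08 in OCI-LY19 and 32.0 ± 0.497 in SUDHL5 between them. HT lay below each other line (adjusted p at most 3.65e-08), while OCI-LY19 and SUDHL5 did not differ beyond their spread (0.0976). Its partner RRM1 read 72.3 ± 2.65 FPKM in HT, so the ratio of the 2 subunits' mRNAs was 5.33 in HT and 1.04 in OCI-LY3. MCM6 was highest in SUDHL5 (136, 139 and 133 FPKM), then OCI-LY3 (76.9 ± 7.34), OCI-LY19 (60.5 ± 4.85) and HT (39.3 ± 0.814), and all 6 pairs of lines passed. UHRF1, which reads hemimethylated DNA at the fork and recruits the maintenance methyltransferase, was highest in OCI-LY19 (87.0, 80.9 and 94.0 FPKM). HT (31.3 ± 1.38) and SUDHL5 (25.4 ± 0.885) were its lowest lines and did not differ beyond their spread (adjusted p = 0.0904). TK1, the salvage enzyme thymidine kinase, ranged from 35.0 ± 3.40 FPKM in OCI-LY19 to 110 ± 3.74 in SUDHL5, and the lines between, HT and OCI-LY3, did not differ beyond their spread (adjusted p = 0.502). The clamp loader subunit RFC3 ranged from 31.3 ± 1.40 in OCI-LY19 to 94.6 ± 8.74 in OCI-LY3, with HT and SUDHL5 between and not apart (0.386).

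**Figure D1:**
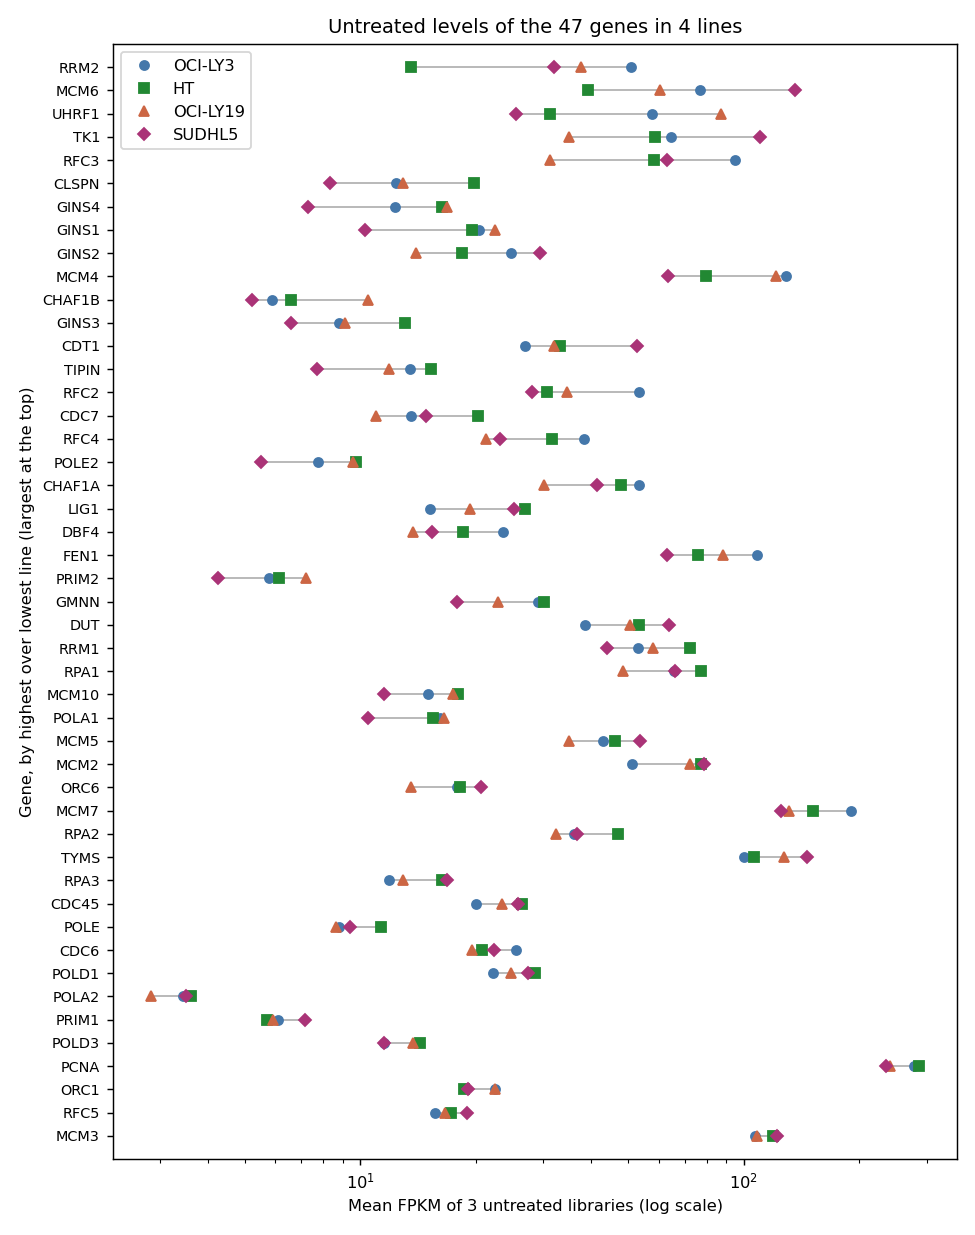
Mean FPKM (log axis) of each of the 47 genes in the 3 untreated libraries of OCI-LY3, HT, OCI-LY19 and SUDHL5, 1 row a gene, ordered by the ratio of the highest to the lowest line. RRM2 at the top spans 13.6 (HT) to 50.9 (OCI-LY3), and MCM3 at the bottom spans 107 to 122.

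After 24 h of doxorubicin the genes went down in OCI-LY19 and SUDHL5 and mostly up in OCI-LY3, with smaller rises in HT. In OCI-LY19, 41 of 47 passed as lower, beside 23.7% of all genes tested, and 1 as higher (34.5%). In SUDHL5, 29 passed as lower (19.9% of all genes) and 2 as higher (18.6%). In OCI-LY3, 35 passed as higher (40.4% of all genes) and 3 as lower (14.3%). In HT, 19 passed as higher (22.9% of all genes) and 3 as lower (9.41%). The median log2 changes of the 47 genes were -0.89 in OCI-LY19, -0.43 in SUDHL5, 0.49 in OCI-LY3 and 0.20 in HT, beside medians over all genes of 0.078, 0.001, 0.16 and 0.06. All of these are limma tests on log2(FPKM + 1) with Benjamini-Hochberg adjustment over 17645 genes. These are bulk cultures, so fewer cycling cells and less mRNA per cell cannot be told apart.

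The number of rises depended on the scaling. Median-of-ratios scaling moved the median of all genes in OCI-LY3 from 0.16 to 0.006, and the split of the 47 genes there became 20 higher and 4 lower. Of all 17645 genes, 4740 passed as higher and 4460 as lower there. Relative to all genes, the median of the 47 in OCI-LY3 was 0.33 under the authors' scaling and 0.23 under median-of-ratios scaling. In HT the split became 8 higher and 3 lower under that scaling, beside 2897 and 2287 of all 17645 genes. The 8, near the share of all genes, were TK1, PRIM1, POLD3, RFC5, GINS4, TYMS, POLA2 and POLE. Relative to all genes, the median of the 47 in HT was 0.14 under the authors' scaling and 0.10 under median-of-ratios scaling. Quantile normalization gave 38 higher and 1 lower in OCI-LY3 and 19 higher and 3 lower in HT, with medians relative to all genes of 0.51 and 0.25. Leaving out treated replicate 3 of HT gave 10 higher, and leaving out treated replicate 1 or untreated replicate 1 gave 12. Of all 17645 genes, 3375, 3378 and 3317 passed as higher in those runs. The falls numbered 41 in OCI-LY19 and 27 in SUDHL5 after median-of-ratios scaling, and 42 and 26 after quantile normalization. Without treated replicate 1 of OCI-LY19, the library that was lowest for most genes, 40 passed as lower there.

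**Figure D2:**
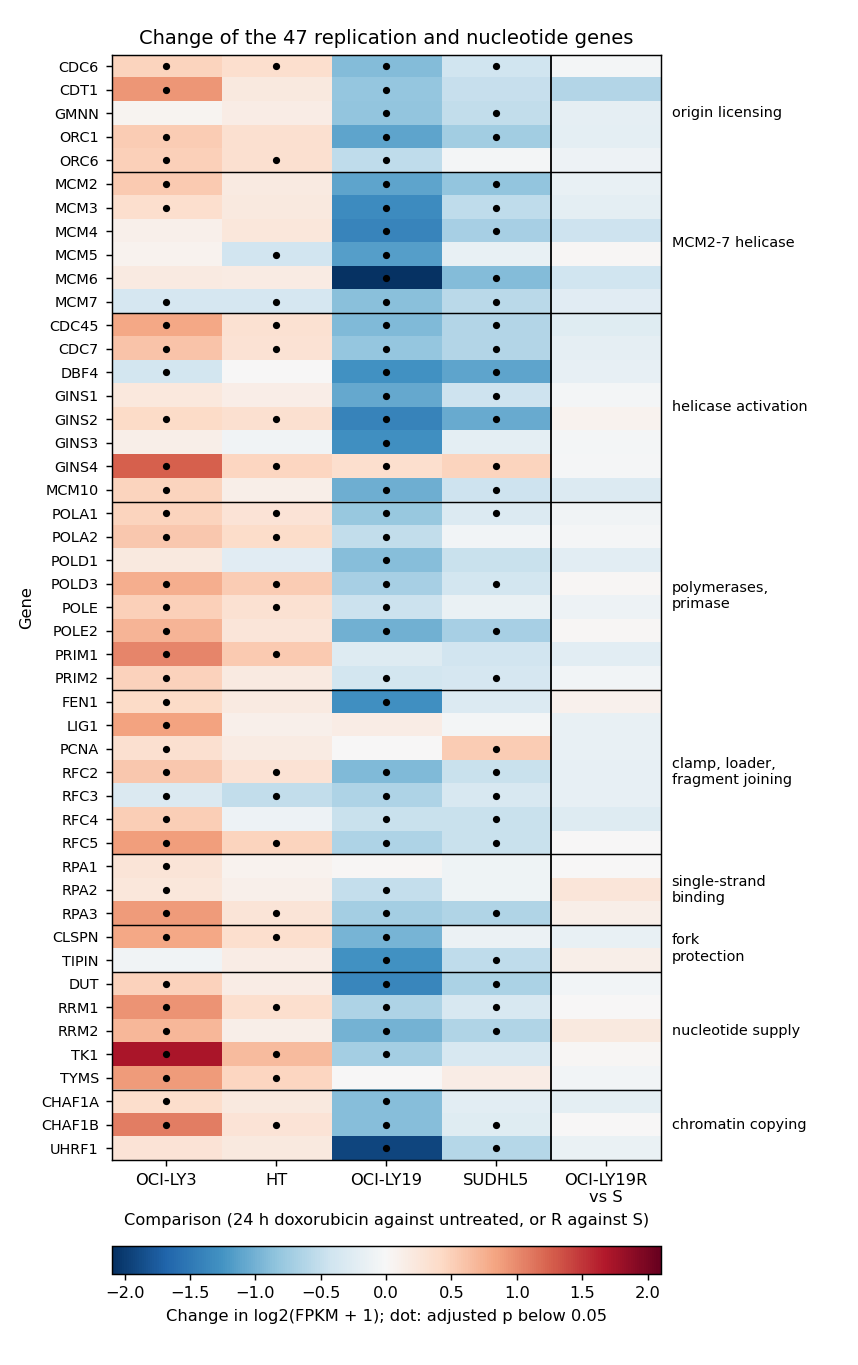
Change in log2(FPKM + 1) of each of the 47 genes (rows, grouped by role) in 5 comparisons (columns), red for higher and blue for lower, with a dot where limma's adjusted p was below 0.05. The OCI-LY19 column holds 41 lower calls, the OCI-LY3 column 35 higher calls, and the column of OCI-LY19R against OCI-LY19S no call.

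Counts by role, here and below, are to be read against the shares of all genes that passed as higher and lower. Those were 40.4% and 14.3% in OCI-LY3, 22.9% and 9.41% in HT, 34.5% and 23.7% in OCI-LY19, and 18.6% and 19.9% in SUDHL5. With median-of-ratios scaling they were 4740 and 4460 of 17645 genes in OCI-LY3, and 2897 and 2287 in HT. Among the licensing genes (CDC6, CDT1, GMNN, ORC1 and ORC6), all 5 fell in OCI-LY19, 3 fell in SUDHL5, 4 rose in OCI-LY3 and 2 rose in HT. CDC6, the loader ATPase, read 20.3, 18.5 and 19.9 FPKM before and 7.31, 12.5 and 10.6 after in OCI-LY19, and 25.3, 26.4 and 24.6 before and 32.5, 37.5 and 35.9 after in OCI-LY3. The groups did not overlap in either line, and the log2 changes were -0.91 ± 0.11 and 0.46 ± 0.11 (adjusted p = 7.50e-07 and 0.00162). CDC6 itself did not pass in OCI-LY3 with median-of-ratios scaling (0.19, adjusted p = 0.168). Under that scaling 1 of the 5 passed as higher in OCI-LY3 and none in HT, with no licensing gene lower in either. CDT1 spread widely between replicates, at 20.7, 22.5 and 37.1 FPKM in untreated OCI-LY3 against 58.8, 38.6 and 55.0 after treatment. Its rise there was 0.92 ± 0.25 (adjusted p = 0.00451). Geminin (GMNN) did not pass in OCI-LY3 (29 ± 2.69 to 30.1 ± 2.18 FPKM) or HT, and fell in OCI-LY19 (22.9 ± 0.738 to 12.6 ± 2.71) and SUDHL5 (17.9 ± 0.337 to 12.2 ± 0.175). The mRNA ratio of CDT1 to geminin on the log2 scale was -0.46, -0.24 and 0.22 in untreated and 1.05, 0.25 and 0.90 in treated OCI-LY3. In SUDHL5 it was 1.56 ± 0.02 before and 1.61 ± 0.15 after, although both mRNAs were at lower means after treatment.

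Of the MCM2-7 helicase genes, all 6 fell in OCI-LY19 and 5 in SUDHL5, with medians of -1.23 and -0.63. MCM6 read 62.9, 54.9 and 63.6 FPKM before and 10.7, 18.2 and 12.8 after in OCI-LY19, and 136, 139 and 133 before and 69.5, 74.3 and 71.8 after in SUDHL5. No treated library reached an untreated one. The log2 changes were -2.07 ± 0.11 and -0.91 ± 0.11 (adjusted p = 1.69e-11 and 3.16e-06). In OCI-LY3 (76.9 ± 7.34 to 87.6 ± 2.53) and HT (39.3 ± 0.814 to 44.4 ± 1.39) MCM6 did not pass (0.180 and 0.291). MCM2 went from 72.5 ± 1.42 to 33.8 ± 8.91 FPKM in OCI-LY19 and from 51.2 ± 4.52 to 75.2 ± 7.21 in OCI-LY3, and MCM3 from 108 ± 3.29 to 43.5 ± 10.7 and from 107 ± 7.58 to 137 ± 2.74. MCM4 went from 121 ± 4.64 to 46.5 ± 12.4 FPKM in OCI-LY19 and from 63.3 ± 1.49 to 38.8 ± 2.38 in SUDHL5. In OCI-LY19 the ratio of the most to the least abundant subunit mRNA was 3.74 before (MCM7 over MCM5) and 5.13 after (MCM7 over MCM6). In OCI-LY3 the median of the 6 subunits was 0.14 under the authors' scaling and turned to -0.13 under median-of-ratios scaling, where none passed as higher, and with quantile normalization it was 0.36, where 4 did.

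MCM7 fell in OCI-LY3, and MCM5 and MCM7 fell in HT. MCM7 read 191, 164 and 215 FPKM before and 140, 159 and 145 after in OCI-LY3, and 158, 146 and 149 before and 116, 116 and 122 after in HT. The ranges did not overlap in either line. Its log2 change was -0.35 ± 0.10 in both (adjusted p = 0.00382 and 0.00790), -0.87 ± 0.10 in OCI-LY19 and -0.56 ± 0.10 in SUDHL5. With quantile normalization the value in OCI-LY3 was -0.05 and did not pass. MCM5 read 49.0, 46.2 and 43.0 FPKM before and 33.4, 38.2 and 32.5 after in HT (-0.40 ± 0.10, adjusted p = 0.00400). It did not pass in OCI-LY3 or SUDHL5 (0.557 and 0.267).

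Helicase activation needs CDC45 and GINS at the MCM ring, the kinase CDC7 with its activator DBF4, and MCM10. Of these 8 genes, 7 fell in OCI-LY19 and 6 in SUDHL5, while 5 rose in OCI-LY3 and 4 in HT. With median-of-ratios scaling the rises in this set numbered 3 in OCI-LY3 and 1 in HT. GINS2 read 14.5, 13.3 and 14.1 FPKM before and 4.07, 6.25 and 3.87 after in OCI-LY19, and 29.4, 29.9 and 28.9 before and 13.4, 13.9 and 13.4 after in SUDHL5. Both falls cleared the spread (-1.41 ± 0.10 and -1.06 ± 0.10, adjusted p = 9.23e-10 and 1.18e-07). CDC45 showed the opposite directions, from 18.6, 19.7 and 21.8 to 35.8, 36.3 and 35.8 FPKM in OCI-LY3 and from 23.2, 23.3 and 23.8 to 8.61, 15.6 and 12.4 in OCI-LY19. The kinase activator DBF4 had the largest fall of the 47 genes in SUDHL5 (15.2, 14.9 and 16.1 to 6.85, 6.51 and 6.58 FPKM, -1.10 ± 0.10, adjusted p = 4.73e-08). DBF4 also fell in OCI-LY3 (25.2, 21.9 and 23.4 to 16.8, 19.0 and 17.2 FPKM, adjusted p = 0.00242), where its partner CDC7 rose (13.6 ± 1.96 to 21.0 ± 2.34 FPKM, 0.60 ± 0.11, adjusted p = 0.000166).

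GINS4 parted from the other 3 subunits of its tetramer in SUDHL5 and OCI-LY19, where none of those 3 passed as higher. In OCI-LY3 and HT, GINS2 passed as higher too. GINS4 read 13.6, 11.4 and 11.8 FPKM before and 30.5, 32.3 and 29.5 after in OCI-LY3, and 6.89, 7.78 and 7.31 before and 10.4, 10.9 and 10.1 after in SUDHL5. In OCI-LY19 it read 16.2, 16.5 and 17.6 before and 17.2, 21.9 and 27.2 after, so that the groups overlapped. The log2 changes were 1.26 ± 0.11 in OCI-LY3, 0.45 ± 0.11 in HT, 0.46 ± 0.11 in SUDHL5 and 0.36 ± 0.11 in OCI-LY19, with adjusted p of 1.01e-08, 0.00287, 0.00172 and 0.00709. GINS4 was the 1 gene of the 47 that passed as higher in all 4 lines. The call in OCI-LY19 was lost with median-of-ratios scaling (0.26, adjusted p = 0.0554), with the libraries of the line alone (0.0784) and without treated replicate 3 (0.0672). In treated OCI-LY19 the mean of GINS4 was 6.92 times that of GINS3, the largest ratio within GINS in any group.

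The polymerase and primase genes (POLA1, POLA2, PRIM1 and PRIM2 of the priming complex, POLD1 and POLD3, POLE and POLE2) had 7 of 8 higher in OCI-LY3 and 5 in HT, and 7 of 8 lower in OCI-LY19 and 4 in SUDHL5. POLD3, an accessory subunit of polymerase delta, read 12.2, 10.8 and 11.6 FPKM before and 21.7, 20.4 and 18.9 after in OCI-LY3, and 14.0, 14.2 and 14.9 before and 20.8, 20.5 and 22.8 after in HT. Both rises had ranges apart (0.77 ± 0.10 and 0.54 ± 0.10, adjusted p = 2.32e-06 and 0.000383). POLD1, the catalytic subunit of the same enzyme, did not pass in OCI-LY3, HT or SUDHL5, and in OCI-LY19, where it fell (-0.89 ± 0.20, adjusted p = 0.000878), its treated libraries spread from 9.01 to 21.0 FPKM and overlapped the untreated ones. PRIM1, which makes the RNA primer, went from 6.36, 4.91 and 7.10 to 14.8, 12.8 and 12.8 FPKM in OCI-LY3 (1.03 ± 0.16, adjusted p = 1.68e-05). In OCI-LY19 its groups overlapped, at 5.69, 6.31 and 5.82 before and 3.27, 5.18 and 6.13 after (-0.27 ± 0.16, adjusted p = 0.147).

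The clamp, its loader and the enzymes that finish Okazaki fragments did not move as a block. Of the 7, 6 rose and 1 fell in OCI-LY3, 2 rose and 1 fell in HT, 5 fell in OCI-LY19, and 1 rose and 4 fell in SUDHL5. Both counts in HT, the 1 fall in OCI-LY3 and the 1 rise in SUDHL5 lay near the shares of all genes. Under median-of-ratios scaling 3 of the 7 passed as higher in OCI-LY3 and 1 in HT, the latter again near that share. FEN1, the flap endonuclease, read 87.5, 83.3 and 94.5 FPKM before and 28.1, 44.5 and 36.0 after in OCI-LY19 (-1.29 ± 0.11, adjusted p = 9.78e-09). LIG1, the ligase that seals the nick FEN1 leaves, read 17.4, 20.3 and 20.3 before and 18.6, 23.5 and 22.9 after in the same libraries (0.15 ± 0.09, adjusted p = 0.143). In OCI-LY3 LIG1 rose from 15.1, 14.1 and 16.5 to 30.6, 26.3 and 27.5 FPKM (0.84 ± 0.09, adjusted p = 1.28e-07). PCNA read 236, 230 and 253 FPKM before and 208, 268 and 247 after in OCI-LY19, where the groups overlapped (adjusted p = 1.0). In SUDHL5 it read 234, 237 and 230 before and 324, 347 and 344 after, a rise of 0.53 ± 0.09 (adjusted p = 8.57e-05). PCNA is a known p53 target as well as an E2F target. It rose in OCI-LY3 (277 ± 31.2 to 351 ± 25.2 FPKM, 0.34 ± 0.09, adjusted p = 0.00268), but this call was lost with median-of-ratios scaling (0.07, adjusted p = 0.616). The value in HT did not pass (286 ± 17.9 to 325 ± 19.4 FPKM, adjusted p = 0.128).

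RFC3 fell in all 4 lines, while RFC2 and RFC5 of the same loader rose in OCI-LY3 and HT. In OCI-LY3 it read 104, 87.4 and 92.1 FPKM before and 72.4, 83.4 and 73.5 after, and in HT 57.9, 56.9 and 60.2 before and 40.4, 43.2 and 37.7 after. RFC5 went from 17.2, 15.7 and 14.3 to 32.1, 28.1 and 28.6 FPKM in OCI-LY3 and from 18.0, 17.5 and 16.2 to 24.4, 24.8 and 23.6 in HT. None of these ranges overlapped. RFC3 changed by -0.30 ± 0.11 in OCI-LY3, -0.52 ± 0.11 in HT, -0.65 ± 0.11 in OCI-LY19 and -0.34 ± 0.11 in SUDHL5 (adjusted p = 0.0245, 0.00119, 4.38e-05 and 0.0187). RFC5 changed by 0.87 ± 0.08, 0.47 ± 0.08, -0.64 ± 0.08 and -0.46 ± 0.08. The ratio of the highest to the lowest of RFC2, RFC3, RFC4 and RFC5 went from 6.02 to 2.70 in OCI-LY3 and from 3.38 to 1.67 in HT. RFC3 did not pass with quantile normalization in OCI-LY3 (-0.13) and SUDHL5 (-0.27), without a filter on low values in OCI-LY3 (adjusted p = 0.0544), or without some single libraries. These were treated replicate 1 (adjusted p = 0.0867), treated replicate 3 (0.0736) or untreated replicate 1 (0.121) of OCI-LY3, and treated replicate 1 (0.0856) or untreated replicate 3 (0.0504) of SUDHL5.

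Replication protein A, the trimer that coats single-stranded DNA, moved unevenly. RPA3, its smallest subunit, went from 12, 10.7 and 13 to 23.6, 21.8 and 23.3 FPKM in OCI-LY3 and from 12.2, 13.2 and 13.4 to 6.47, 8.66 and 7.42 in OCI-LY19. RPA1, its largest subunit, read 47.3, 46.6 and 51.0 before and 48.1, 45.3 and 53.7 after in OCI-LY19 and did not pass (adjusted p = 0.820). The ratio of RPA1 to RPA3 went from 3.73 to 6.52 in OCI-LY19, from 3.94 to 5.90 in SUDHL5 and from 5.50 to 3.46 in OCI-LY3. The rises of RPA1 and RPA2 in OCI-LY3 (0.27 ± 0.06 and 0.24 ± 0.06) turned to -0.01 and -0.03 with median-of-ratios scaling. Of the fork protection genes, CLSPN, the adaptor that activates CHK1, rose in OCI-LY3 (12.4 ± 0.171 to 22.8 ± 3.40 FPKM) and HT (19.8 ± 1.43 to 25.5 ± 0.757) and fell in OCI-LY19 (12.9 ± 1.85 to 6.13 ± 1.61). TIPIN, which works with TIMELESS at the fork, fell in OCI-LY19 (11.9 ± 0.143 to 4.44 ± 1.12 FPKM) and SUDHL5 (7.73 ± 0.489 to 5.01 ± 0.147) and did not pass in the other lines.

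Nucleotide supply had the largest rise. TK1 read 61.4, 52.9 and 79.0 FPKM before and 204, 195 and 237 after in OCI-LY3, and 61.8, 50.7 and 63.7 before and 93.8, 80.6 and 108 after in HT. The treated libraries lay above the untreated ones in both lines (1.72 ± 0.14 and 0.67 ± 0.14, adjusted p = 7.77e-09 and 0.00136). In OCI-LY19 TK1 fell (35.0 ± 3.40 to 21.0 ± 3.85 FPKM, -0.72 ± 0.14, adjusted p = 0.000215). All 5 supply genes rose in OCI-LY3, and 4 did so under median-of-ratios scaling. RRM1 went from 52.9 ± 6.77 to 103 ± 1.27 FPKM in OCI-LY3 and from 57.8 ± 2.63 to 37.3 ± 7.36 in OCI-LY19. TYMS, which makes thymidylate, read 109, 141 and 130 before and 104, 140 and 138 after in OCI-LY19, where the groups overlapped (adjusted p = 1.0). It rose in OCI-LY3 (99.9 ± 17.2 to 184 ± 6.6 FPKM) and in HT (106 ± 6.69 to 145 ± 10.9). DUT, which makes the substrate of TYMS and keeps uracil out of DNA, fell in OCI-LY19 from 42.9, 60.4 and 47.9 to 15.3, 23.5 and 18.2 FPKM (-1.37 ± 0.16, adjusted p = 3.33e-07).

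RRM2 and RRM2B are alternative small subunits of ribonucleotide reductase, and RRM2B is a known p53 target that is not among the 47 genes. RRM2 fell in OCI-LY19 from 35.9, 37.1 and 40.0 to 13.9, 21.8 and 20.4 FPKM (-1.0 ± 0.12, adjusted p = 6.81e-07). RRM2B rose in the same libraries from 7.44, 5.44 and 6.51 to 60.8, 44.9 and 65.4 FPKM (2.95 ± 0.13, adjusted p = 6.67e-13). Their log2 ratio was 2.27, 2.77 and 2.62 before and -2.13, -1.04 and -1.68 after, so RRM2B was the more abundant per length in every treated library. In SUDHL5 RRM2B was already at 36.6, 34.2 and 34.6 FPKM before and read 39.6, 40.2 and 39.6 after (0.18 ± 0.13, adjusted p = 0.331). The response of RRM2B in OCI-LY19 exceeded that in SUDHL5 by 2.77 ± 0.19, that in HT by 2.74 and that in OCI-LY3 by 2.95, all past the threshold (adjusted p = 1.25e-09, 1.07e-09 and 3.30e-10). In HT the ratio was below 0 in all 6 libraries, -0.86 ± 0.18 before and -0.94 ± 0.38 after.

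**Figure D3:**
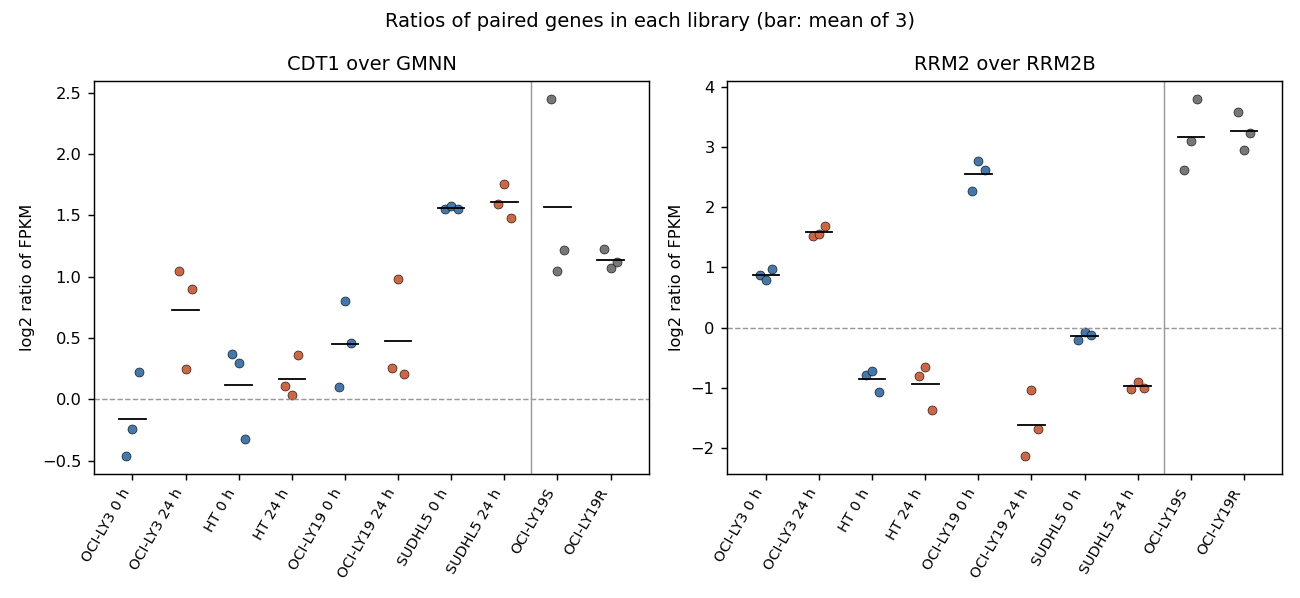
Log2 ratio of FPKM in each library of 10 groups, CDT1 over GMNN at left and RRM2 over RRM2B at right; points are libraries, bars are means of 3, and the vertical line separates the 2 tables. RRM2 over RRM2B lies at 2.27 to 2.77 in untreated and at -2.13 to -1.04 in treated OCI-LY19.

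Of the genes that copy chromatin, CHAF1A and CHAF1B encode subunits of the histone chaperone CAF-1. CHAF1B read 6.41, 5.57 and 5.64 FPKM before and 13.5, 13.7 and 13.3 after in OCI-LY3, and 10.7, 9.68 and 11.1 before and 4.16, 6.09 and 5.56 after in OCI-LY19. Both changes left the ranges apart (1.08 ± 0.09 and -0.89 ± 0.09, adjusted p = 4.88e-09 and 4.27e-08). UHRF1 read 87.0, 80.9 and 94.0 before and 17.4, 31.9 and 19.2 after in OCI-LY19 (-1.93 ± 0.15, adjusted p = 1.54e-09), and fell in SUDHL5 (25.4 ± 0.885 to 16.5 ± 0.977 FPKM, adjusted p = 0.00299). It did not pass in OCI-LY3 (0.108) or HT (0.317).

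**Figure D4:**
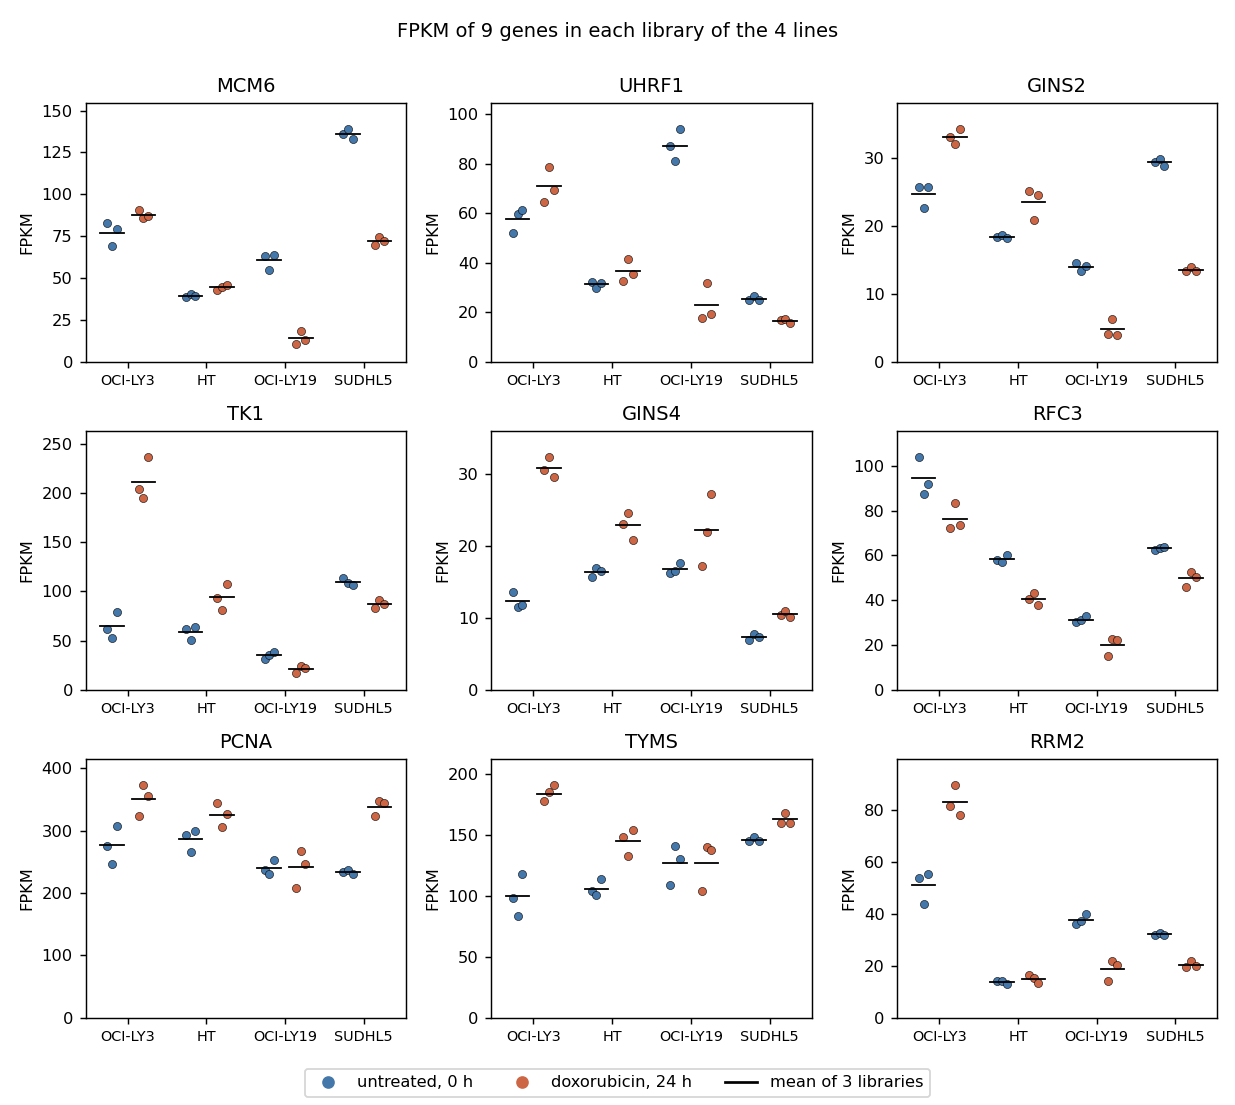
FPKM (linear axes from 0) of 9 genes in each of the 24 libraries of the 4 lines, blue untreated and red after 24 h of doxorubicin, with bars at the mean of 3. MCM6 falls from 54.9 to 63.6 down to 10.7 to 18.2 in OCI-LY19, while PCNA and TYMS overlap there and GINS4 is above its untreated range in 3 of the 4 lines.

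The lines were then compared directly for how far each gene moved. The response differed among the 4 lines for 46 of 47 genes by limma's F test, beside 72.2% of all genes, and RFC3 was the gene that did not pass (adjusted p = 0.155). OCI-LY3 against OCI-LY19 gave 46 of 47 genes (47.7% of all genes), all more positive in OCI-LY3. OCI-LY3 against SUDHL5 gave 41 (49.4%), HT against OCI-LY19 gave 40 (45.2%), and HT against SUDHL5 gave 34 (37.0%). OCI-LY19 against SUDHL5 gave 22 (43.9%), all more negative in OCI-LY19, and OCI-LY3 against HT gave 13 (29.4%), of which 12 were more positive in OCI-LY3. The last 2 are 46.8% and 27.7% of the 47 genes, near the background when both directions are counted together. By direction, 3073 of all 17645 genes passed as more negative in OCI-LY19 than in SUDHL5, and 4679 as more positive. For OCI-LY3 against HT, 3517 of all genes passed as more positive in OCI-LY3 and 1677 as more negative. Alternative settings gave 22 to 33 of the 47 genes for OCI-LY19 against SUDHL5 and 6 to 18 for OCI-LY3 against HT.

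Opposite calls were found for 29 genes that rose in OCI-LY3 and fell in OCI-LY19, beside 6.39% of all genes with that pattern, and each of the 29 also passed the test of the difference. OCI-LY3 up with SUDHL5 down held for 20 genes (8.08% of all genes) and HT up with OCI-LY19 down for 16 (4.05%), all past that test too. The 11 genes that rose in OCI-LY3 and HT and fell in OCI-LY19 and SUDHL5 (1.52% of all genes) were CDC6, CDC7, CDC45, GINS2, POLA1, POLD3, RFC2, RFC5, RPA3, CHAF1B and RRM1. With median-of-ratios scaling these 4 counts were 16, 10, 5 and 2, the last being POLD3 and RFC5, beside 3.96%, 4.66%, 3.13% and 0.805% of all genes. With quantile normalization they were 33, 21, 15 and 8. TK1 had the widest difference between OCI-LY3 and OCI-LY19, 2.44 ± 0.20 (adjusted p = 1.10e-08), then MCM6 with 2.26 ± 0.16 (1.85e-09). MCM6 and UHRF1 fell further in OCI-LY19 than in SUDHL5, by 1.16 ± 0.16 and 1.34 ± 0.21 (adjusted p = 1.21e-05 and 3.95e-05). The response of PCNA, which rose in SUDHL5 and did not pass in OCI-LY19, was also more negative in OCI-LY19, by 0.53 ± 0.13 (adjusted p = 0.00206).

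OCI-LY19R and OCI-LY19S did not differ past the threshold for any of the 47 genes. limma called 0 higher and 0 lower, beside 3.11% and 2.34% of the 12785 genes tested, and 6 genes had an unadjusted p below 0.05, 1 of them higher (14.6% of all genes) and 5 lower (8.85%). Those 6, named after their values were seen, were CDT1, MCM6, CDC45, POLD1 and PRIM1, at lower means in OCI-LY19R, and RPA2, at a higher mean. The median change was -0.10, beside 0.052 for all genes. It was -0.04 without replicate 3 and -0.17 without replicate 1 of OCI-LY19S, -0.15 without replicate 1 of OCI-LY19R, and -0.16 with median-of-ratios scaling. The share of all genes with a negative change was not counted. In this comparison 35 of 47 genes had a negative change, that is a lower mean log2(FPKM + 1) in OCI-LY19R. CDT1 had the largest, -0.62 ± 0.24 (adjusted p = 0.182), reading 119, 62.3 and 69.3 FPKM in the sensitive libraries and 58.3, 47.4 and 50.2 in the resistant ones. The ranges did not overlap, and 1 of the 3 sensitive libraries was far above the rest. Without that library (OCI-LY19S replicate 1) the change in CDT1 was -0.34 (adjusted p = 0.0943), and MCM4 and GMNN passed as lower, at -0.69 and -0.34 (adjusted p = 0.0113 and 0.0336). These 2 are near the share of all genes that passed as lower in that run, 493 of 12785. Neither MCM4 nor GMNN passed with any other single library left out. The authors' deposited table gives CDT1 a log2 fold change of -0.75 with an adjusted p of 0.0152, and passes no other of the 47 genes at that threshold. MCM6 read 69.5, 76.1 and 94.2 FPKM against 67.7, 61.5 and 49.2 (-0.42 ± 0.16, adjusted p = 0.176). RRM2 read 27.1, 34.9 and 47.5 against 46.0, 39.9 and 37.5, and its groups overlapped (adjusted p = 0.581). The sensitive libraries were themselves spread, with TK1 at 45.1, 65.2 and 93.5 FPKM. They also differed in depth, with 18354091, 20558372 and 121769119 reads in replicates 1, 2 and 3. The part of depth in this spread was not tested.

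Further genes of the same processes gave a mixed picture, to be read against the shares of all genes that passed as higher and lower: 40.4% and 14.3% in OCI-LY3, 22.9% and 9.41% in HT, 34.5% and 23.7% in OCI-LY19, and 18.6% and 19.9% in SUDHL5. Of 25 genes tested (from a list of 27) that assist initiation or the fork, 21 fell in OCI-LY19 and 13 in SUDHL5, while 14 rose in OCI-LY3 and 10 in HT, with 3 and 2 lower. With median-of-ratios scaling the split in OCI-LY3 was 12 higher and 7 lower, the 7 near the share of all genes. Under that scaling 4740 of all 17645 genes passed as higher and 4460 as lower in OCI-LY3, and 2897 and 2287 in HT. Counts of the next lists under that scaling are to be read against these. TIMELESS, the partner of TIPIN, rose in OCI-LY3 (1.20 ± 0.11, adjusted p = 3.55e-08) and HT (0.52 ± 0.11, adjusted p = 0.00158). TICRR, which helps bring CDC45 to origins, rose in HT (0.62 ± 0.11, adjusted p = 0.000223) and fell in SUDHL5 (-1.05 ± 0.11, adjusted p = 2.24e-07). POLE3, a small subunit of polymerase epsilon, fell in OCI-LY3 (-0.54 ± 0.07) and HT (-0.40 ± 0.07), where POLE rose. POLD4, a small subunit of polymerase delta, rose in OCI-LY19 (0.52 ± 0.12) and SUDHL5 (0.77 ± 0.12). In OCI-LY19R, DSCC1 of an alternative clamp loader was lower (-0.85 ± 0.11, adjusted p = 0.0126), the 1 gene of this list that passed there.

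Of 30 further genes of nucleotide synthesis, 7 rose and 14 fell in OCI-LY3. SHMT1, a serine hydroxymethyltransferase of folate metabolism, rose by 0.82 ± 0.09 in that line (adjusted p = 3.01e-07). PFAS of purine synthesis and the nucleoside diphosphate kinase NME1 fell there (-1.17 ± 0.14 and -1.11 ± 0.11, adjusted p = 5.70e-07 and 1.09e-07). In HT 8 rose and 6 fell. Median-of-ratios scaling gave 4 higher and 14 lower in OCI-LY3, and 5 and 6 in HT. In OCI-LY19 24 fell and 3 rose, and in SUDHL5 14 fell and 2 rose. The purine enzyme PAICS fell by 1.19 in OCI-LY19 and by 1.14 in SUDHL5, and SAMHD1, which degrades deoxynucleotides, rose in both (1.09 ± 0.12 and 1.07 ± 0.12, adjusted p = 1.35e-07 and 4.51e-07). DCTD was the 1 gene of this list past the threshold in OCI-LY19R (0.40 ± 0.08, adjusted p = 0.0396).

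Of 12 further genes of chromatin replication, 11 fell in OCI-LY19, 6 fell in SUDHL5, 4 rose in OCI-LY3 with 1 lower, and 1 rose and 1 fell in HT. The shares that rose in OCI-LY3 and HT lay below those of all genes. Median-of-ratios scaling gave 2 higher and 3 lower in OCI-LY3. SLBP, which binds the stem-loop of histone mRNAs, fell in OCI-LY19 (-1.34 ± 0.08) and SUDHL5 (-0.89 ± 0.08), and the histone chaperone ASF1B rose in OCI-LY3 (1.13 ± 0.11) and HT (0.49 ± 0.11). Of 17 E2F and pocket protein genes, OCI-LY3 had 10 higher and 4 lower, HT 4 and 3, OCI-LY19 5 and 10, and SUDHL5 5 and 5. The shares that rose in HT and OCI-LY19 lay near those of all genes. The repressor E2F7 rose in all 4 lines, by 1.68 ± 0.10 in OCI-LY3, 0.45 ± 0.10 in HT, 1.27 ± 0.10 in OCI-LY19 and 0.77 ± 0.10 in SUDHL5. E2F1 rose in OCI-LY3 (0.85 ± 0.11), the pocket protein gene RBL2 rose in OCI-LY19 (1.62 ± 0.12), and E2F2 and TFDP1 fell in OCI-LY19 (-1.31 ± 0.12 and -1.34 ± 0.08). With median-of-ratios scaling the E2F list in OCI-LY3 had 5 higher and 6 lower. Of 17 mitosis genes taken for comparison, 17 fell in OCI-LY19 and 16 in SUDHL5, with medians of -1.40 and -0.71. In OCI-LY3, where 35 of the 47 replication genes rose, 3 mitosis genes rose and 6 fell, among them CDC20 (-1.51 ± 0.22) and PLK1 (-0.94 ± 0.22), and in HT none rose and 6 fell. With median-of-ratios scaling none of the mitosis genes rose in OCI-LY3 and 7 fell.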

How the data were processed

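RNA sequencing libraries of 4 lymphoma lines and of OCI-LY19S and OCI-LY19R were analysed. Libraries were strand-specific and made from poly(A) RNA, per the labels' protocols. The submitters' processing notes name Trimmomatic, STAR, featureCounts and hg38, without an annotation or a strand setting. The authors deposited FPKM values per gene in 2 tables that were normalized separately, so each test stayed within 1 table. The table of OCI-LY19S and OCI-LY19R adds the authors' log2 fold change, test score and p-values, per the file headers. Whole reads were recovered from FPKM steps to judge depth only.

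Genes at 1 FPKM or more in at least 3 libraries entered limma 3.58.1 (in R 4.3.3, a linear model with trended empirical Bayes moderation, two-sided) on log2(FPKM + 1), which understates changes of low genes. The 8 groups of the 4 lines shared 1 fit with 16 residual degrees of freedom, and the other 2 groups another with 4. The threshold was a Benjamini-Hochberg adjusted p of 0.05 over all genes tested. The script was tested on simulated data. All 47 genes passed the filter in both tables. POLA2 had 2 gene IDs, of which the one higher in every library was used. Same-numbered replicates deviated together in HT (correlations of 0.17, 0.32 and 0.35) and not throughout in the other lines, and a replicate block was tried as an alternative. Other alternatives were the pseudocount, the filter, 2 further scalings, the L-number of the libraries, each line alone and each library left out. The L-number ends the sample description, and taking it for a sequencing lane is an assumption.

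The genes and lists were chosen with earlier results of these data known. Any of the 47 may be named; values per library are given for the largest called changes, with MCM2-7, CDC6, CDT1, GMNN, PCNA, RRM1, RRM2, TYMS, TK1 and UHRF1 always described, and up to 2 genes a direction from each further list. A titled word "ctrl" in the treated libraries was overruled by their treatment label.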

Additional observations from a re-analysis of the deposited data

Results flagged for a closer look

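The effect of doxorubicin differed between lines, by limma tests of the difference itself. Over the 4 lines together 46 of the 47 genes passed, beside 72.2% of all genes tested. Between pairs of lines, 46 passed for OCI-LY3 and OCI-LY19 (47.7% of all genes) and 41 for OCI-LY3 and SUDHL5 (49.4%). For HT and OCI-LY19 40 passed (45.2%), and for HT and SUDHL5 34 (37.0%). The 22 for OCI-LY19 and SUDHL5 (46.8% of the 47, 43.9% of all genes) lay near the background when both directions were counted together. So did the 13 for OCI-LY3 and HT (27.7% and 29.4%). All 22 were more negative in OCI-LY19, beside 3073 of all 17645 genes. CDKN1A rose past the threshold in OCI-LY3, OCI-LY19 and SUDHL5 and read 0.229 FPKM or less in HT. Its part in these differences was not tested.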

How the results depend on the processing

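Counts of the 47 genes stayed within 1.5 times of those reported, except as follows. With median-of-ratios scaling, 20 rose in OCI-LY3, 8 in HT and 0 in OCI-LY19, and 6 differed in response between OCI-LY3 and HT. The 8 in HT lay near the share of all genes (2897 of 17645). With quantile normalization, 1 fell in OCI-LY3 and 4 rose in OCI-LY19. In OCI-LY19 the count of risen genes was 2 with the L-number as a covariate and 0 with the libraries of the line alone. RPA1 and RPA2 in OCI-LY3 turned to -0.01 and -0.03 with median-of-ratios scaling. Leaving out single libraries gave 10 to 15 risen genes in HT. It gave 0 to 2 risen genes in OCI-LY19 and 0 to 2 lower genes in OCI-LY19R. The 2 in OCI-LY19R were near the share of all genes in that run (493 of 12785). The cause was not tested. Of the called genes, 40 of 42 in OCI-LY19, 27 of 31 in SUDHL5, 21 of 38 in OCI-LY3 and 10 of 22 in HT kept their call under every alternative run.

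The replicate block gave 2 risen genes in OCI-LY19 and moved no other count by over 1.5 times. It was not run for untreated levels, where a block within each line coincides with the line. The lowest count, 154 reads of POLE2, carries a counting error of 8.06%, so depth limits the genes of few reads in SUDHL5, where libraries differed by less. The limits are 3 libraries a group, 1 sampling time for untreated cells, and scaling to the library total.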

Other observations

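Libraries of a group were not equally spread. In treated OCI-LY19 the library of replicate 1 was the lowest of 3 for 45 of the 47 genes, with a mean log2(FPKM + 1) over them of 3.61, beside 4.15 and 3.98 in the other two. Without it the median change was -0.70. In untreated OCI-LY3 replicate 2 was the lowest for 33 genes (4.76 beside 4.89 and 4.92), and in OCI-LY19S replicate 1 was the lowest for 31 (4.83 beside 4.96 and 5.10). In OCI-LY19R replicate 1 was the lowest for none.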
